A study of Mus musculus with 6 samples.

Results

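The IFIT family (interferon-induced proteins with tetratricopeptide repeats) was followed through RNA sequencing of macrophages that were isolated by flow cytometry out of MC38 tumours, a mouse colon carcinoma model grown under the skin. The family members described are Ifit1, Ifit1bl1, Ifit2 and Ifit3, 4 of the 21760 gene symbols in the table, taken by symbol and selected on their levels and fold changes in these same libraries, with earlier results known. Ifit3b and Ifit1bl2, which are close relatives in the same table, are given beside them. Tumours of Xkr8 KO clone 2 (2 mice), Xkr8 KO clone 1 (2 mice) and the wild type (WT, 2 mice) had grown for 16 days in C57BL6 mice, with no other treatment. Xkr8 is a membrane scramblase, switched on by caspases, that exposes phosphatidylserine on the surface of dying cells. The comparison asks how macrophages differ when the tumour cells around them lack Xkr8. Exposure on the tumour cells is not measured by these libraries. The deletion is in the tumour cells, while the macrophages come from the host, and each KO group stands for 1 clone. Which markers defined the sort is not given in the sources used here.

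IFIT genes are among the genes most strongly switched on by type I interferon. The receptor activates the kinases Jak1 and Tyk2, and the signal ends at the interferon-stimulated response element in the promoters of responding genes, where Irf9 is part of the complex that binds. Mouse Ifit1 binds the cap of RNA that lacks ribose methylation and blocks its translation. Ifit2 and Ifit3 bind to each other in studies of the human proteins, and IFIT3 there also strengthens the cap binding of IFIT1. Macrophages raise these genes on sensing viral or cell-derived nucleic acids, and also in response to interferon-gamma, which T cells and NK cells make.

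All 6 genes lie within 99.3 kb of chromosome 19 (GRCm38, GENCODE M21). Along it come Ifit2 (chr19:34550694-34576419, plus strand), Ifit3 (chr19:34583531-34588731, plus), Ifit1bl1 (chr19:34592891-34601956, minus), Ifit3b (chr19:34607970-34613401, plus), Ifit1bl2 (chr19:34617049-34640743, minus) and Ifit1 (chr19:34640871-34650009, plus). All are protein-coding, with 2 coding exons, and the longer of these holds 97.7% to 99.6% of the coding bases. The coding sequence has 1389 bases in Ifit1, 1410 in Ifit1bl1, 1410 in Ifit2 and 1209 in Ifit3. The promoters are shown because the family is known for its interferon-stimulated response elements. The core of that element was searched as GAAANNGAA on both strands, and the gamma-activated site, a motif of the interferon-gamma response, as TTCNNNGAA, which reads the same on both strands. Sequences are from RefSeq (GRCm38.p6), read 5′ to 3′ on the strand of the gene and ending at the base before the start site. Capitals mark matches to the response element core, and in Ifit2 a match to the gamma-activated site. A core match on the opposite strand appears as the reverse complement of those letters. The Ifit3 sequence is chr19:34583279-34583528 (plus), the Ifit1 sequence chr19:34640744-34640888 (plus), the first Ifit1bl1 sequence chr19:34601969-34602218 (minus), the second chr19:34599428-34599677 (minus), and the Ifit2 sequence chr19:34550444-34550693 (plus). The Ifit1 sequence is shorter because it begins beside the start site of Ifit1bl2 on the other strand.
Ifit3: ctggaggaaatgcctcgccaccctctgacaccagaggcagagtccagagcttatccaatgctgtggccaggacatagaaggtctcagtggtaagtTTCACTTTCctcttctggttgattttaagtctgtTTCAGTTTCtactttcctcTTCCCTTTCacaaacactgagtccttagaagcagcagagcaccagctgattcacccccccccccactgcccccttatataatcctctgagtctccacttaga
Ifit1: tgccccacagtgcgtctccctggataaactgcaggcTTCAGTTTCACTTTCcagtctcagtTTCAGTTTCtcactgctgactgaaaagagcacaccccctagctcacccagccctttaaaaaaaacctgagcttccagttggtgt
Ifit1bl1, start site 1: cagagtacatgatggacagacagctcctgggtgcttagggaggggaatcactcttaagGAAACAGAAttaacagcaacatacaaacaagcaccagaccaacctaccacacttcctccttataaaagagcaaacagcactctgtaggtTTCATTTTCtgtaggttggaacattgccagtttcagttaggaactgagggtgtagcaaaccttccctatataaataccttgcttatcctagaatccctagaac
Ifit1bl1, start site 2: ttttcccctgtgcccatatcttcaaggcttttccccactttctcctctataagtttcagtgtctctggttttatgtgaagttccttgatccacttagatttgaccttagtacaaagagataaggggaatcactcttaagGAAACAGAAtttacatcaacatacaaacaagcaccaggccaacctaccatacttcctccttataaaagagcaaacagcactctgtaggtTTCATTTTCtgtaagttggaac
Ifit2, start site 1: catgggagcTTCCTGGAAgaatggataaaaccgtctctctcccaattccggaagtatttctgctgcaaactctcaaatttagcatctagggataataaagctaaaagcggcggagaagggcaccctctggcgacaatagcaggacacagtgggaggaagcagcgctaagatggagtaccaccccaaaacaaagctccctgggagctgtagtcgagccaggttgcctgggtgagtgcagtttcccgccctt

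Windows of 300 bases, from 250 before to 50 after the RefSeq start sites used, were searched. Some RefSeq gene records begin further upstream, as for Ifit2 (34550550) and Ifit3 (34583119), and no window was set there. Of the 6 windows of the members, 4 held the core, against 8.56% of all 32851 windows. Ifit1, Ifit1bl1 and Ifit3 each had at least 2 matches per window, and 0.624% of all windows had as many. Counted in bases from the start site, Ifit3 had 3 matches, which begin at -155, -121 and -102. Ifit1 had 3, at -109, -103 and -84, of which the first 2 overlap. The windows of Ifit1 and Ifit1bl2 overlap on opposite strands and share these 3 matches. Ifit1bl1 had a pair of matches at each start site, at -192 and -103 for the first and at -111 and -22 for the second. Neither window of Ifit2 held the letters of the core, and the rest of the gene, outside these windows, was not searched. The first Ifit2 window had the only gamma-activated site among the members, at -241, and 8.30% of all windows held that motif. A letter match is a description of the window and not a measured binding site.

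**Figure D1:**
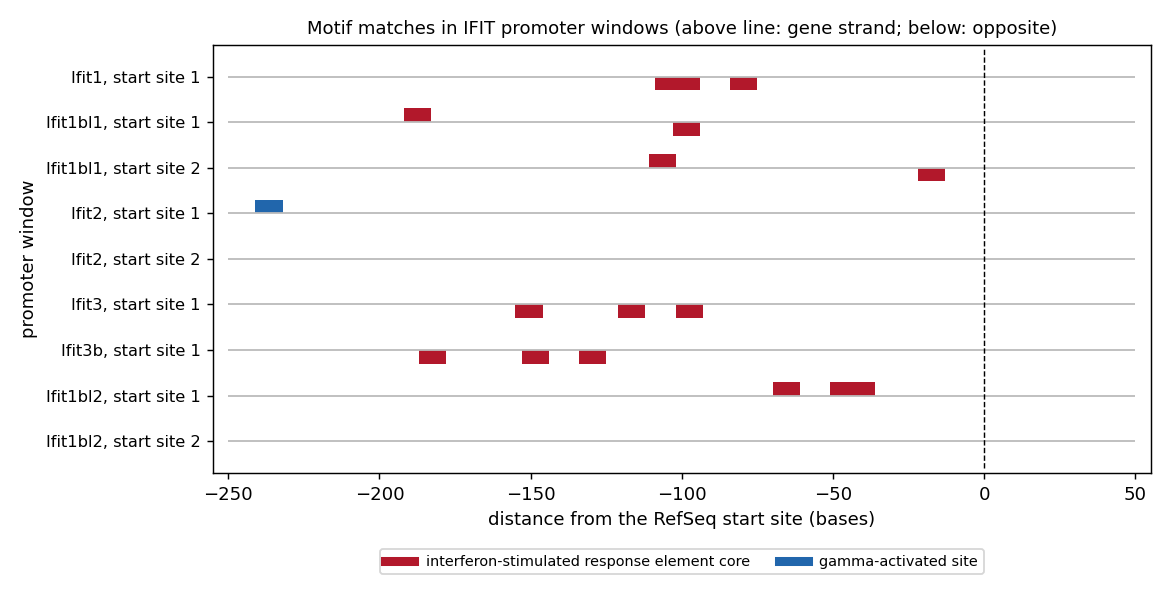
Matches to both motifs in the promoter windows of the 6 IFIT genes, by distance in bases from the RefSeq start site (dashed line), with matches on the strand of the gene above each grey line and those on the opposite strand below it. Ifit1, Ifit1bl1 and Ifit3 carry 2 or 3 core matches per window and the Ifit2 windows carry none.

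Levels below are CPM, a gene's count relative to its library size, with library sizes scaled by TMM, and differences are log2 fold changes with their standard errors from edgeR's quasi-likelihood fit over 15560 genes. A gene is said to pass where its p, adjusted by Benjamini-Hochberg over all those genes, is under 0.05. The libraries held 37090034 to 40022755 estimated counts, apart from WT mouse 2 with 20038047. WT mouse 2 stood apart in other ways. Rn45s, the precursor of ribosomal RNA, made up 24.64% of its counts, against 1.461% to 7.12% in the other 5, and its TMM factor was 0.7257, against 0.9826 to 1.163. Xkr8 itself, measured here in host cells, was at 6.97 and 6.16 CPM in KO clone 2, 4.70 and 4.14 CPM in KO clone 1, and 6.90 and 6.05 CPM in WT, and does not check the deletion in the tumour.

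The IFIT genes were at higher levels in macrophages from KO tumours than in those from WT tumours. For each of the 4 members, and for both relatives, all 4 KO libraries lay above both WT libraries. Of all genes tested, 12.9% showed this arrangement and 10.7% the opposite one. The 4 members together came to 1309 and 1089 CPM in KO clone 2, 1407 and 1133 CPM in KO clone 1, and 628 and 574 CPM in WT. In the comparison of KO with WT, 1 of the 4 members passed (Ifit1bl1), while 0.135% of all genes passed (0.129% as higher). DESeq2 called 3 of the 4 (all but Ifit1) and 2.31% of all genes as higher. Since the family was chosen with this contrast known, these counts describe it and are not a test of it. The median log2 fold change of the 4 members was 1.18, against 0.00 over all genes. It came to 0.97 with WT mouse 2 left out, with Ifit1bl1 alone passing (0.168% of all genes passed as higher), and to 1.48 with WT mouse 1 left out, with 3 passing (21.9% of all genes). In bulk samples, a change in the number of cells of a type and a change in RNA per cell cannot be told apart.

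Ifit1bl1, a close relative of Ifit1 found in the mouse cluster, had the widest relative gap between genotypes among the 6 genes. Its level was 39.6 and 36.1 CPM in KO clone 2, 43.8 and 33.7 CPM in KO clone 1, and 10.3 and 7.36 CPM in WT. The KO libraries were close together, and the lowest of them was more than 3 times the higher WT library. The mean was 38.3 ± 4.43 CPM in KO and 8.83 ± 2.08 CPM in WT (SD, n = 4 and 2), with a log2 fold change of 2.11 ± 0.23. Ifit1bl1 rested on 1293 to 1809 estimated counts in the KO libraries, and on 469 in WT mouse 1 and 107 in WT mouse 2. It passed also without WT mouse 2 (1.87) and without WT mouse 1 (2.39), but not when any 1 KO library was left out (2.04 to 2.17).

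Ifit2, which in mice protects against several neurotropic viruses, varied most within WT. It was at 512 and 422 CPM in KO clone 2, 549 and 382 CPM in KO clone 1, and 252 and 117 CPM in WT. The groups did not overlap, but WT mouse 2 was far below WT mouse 1. The mean was 466 ± 77.4 CPM in KO and 184 ± 95.2 CPM in WT (SD, n = 4 and 2), with a log2 fold change of 1.34 ± 0.34 that did not pass. The size of this difference depended on which WT library was used. Without WT mouse 2 it was 0.86, and without WT mouse 1 it was 2.01.

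Ifit3, the partner of Ifit2, had 461 and 375 CPM in KO clone 2, 511 and 404 CPM in KO clone 1, and 204 and 227 CPM in WT. The WT libraries were close together on this scale, but not on unscaled totals, where Ifit3 had 408 to 547 CPM in KO, against 237 CPM in WT mouse 1 and 165 CPM in WT mouse 2. The mean was 438 ± 60.3 CPM in KO and 215 ± 16.3 CPM in WT (SD, n = 4 and 2), with a log2 fold change of 1.02 ± 0.20. Ifit3 did not pass. Its near-copy Ifit3b had 106 and 91.5 CPM in KO clone 2, 117 and 88.6 CPM in KO clone 1, and 42.9 and 53.9 CPM in WT, with a log2 fold change of 1.06 ± 0.20 that did not pass either.

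Ifit1, which binds RNA caps, differed least among the members. It had 296 and 256 CPM in KO clone 2, 304 and 314 CPM in KO clone 1, and 162 and 223 CPM in WT. The lowest KO library was thus close above WT mouse 2. This depends on the scaling of WT mouse 2: on unscaled library totals, Ifit1 was at 278 to 325 CPM in KO, and at 188 CPM in WT mouse 1 and 162 CPM in WT mouse 2. The mean was 292 ± 25.5 CPM in KO and 193 ± 43.2 CPM in WT (SD, n = 4 and 2), with a log2 fold change of 0.60 ± 0.20 that did not pass. Ifit1bl2, the lowest of the 6 genes, had 3.10 to 3.75 CPM in KO and 2.20 and 1.93 CPM in WT, with a log2 fold change of 0.68 ± 0.27 that did not pass.

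**Figure D2:**
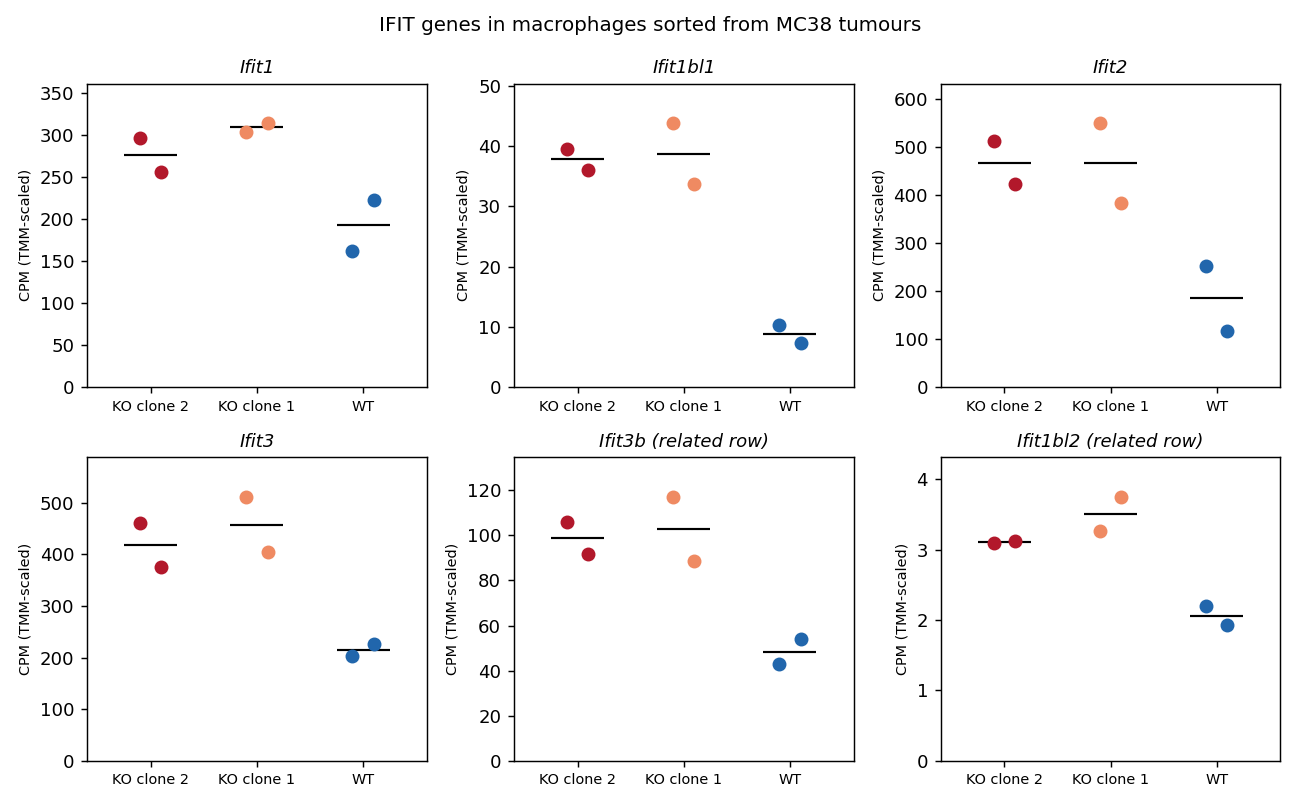
Level of each IFIT gene in CPM on TMM-scaled library sizes (y axes start at 0 and differ between panels) for KO clone 2, KO clone 1 and WT, with 1 point per mouse and a line at the mean of each group. In every panel the 4 KO points lie above both WT points, with the widest relative gap for Ifit1bl1 and the widest spread within WT for Ifit2.

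The proportions among the members also differed between libraries. Ifit1 exceeded Ifit1bl1 by a ratio of 6.93 to 9.32 in KO, against 15.7 in WT mouse 1 and 30.3 in WT mouse 2. Ifit1bl1 made up 2.75% to 3.05% of the summed CPM of the 6 genes in KO, against 1.53% and 1.17% in WT. The ratio of Ifit3 to Ifit3b was 4.10 to 4.56 in KO and 4.75 and 4.21 in WT, so that the libraries of both genotypes overlapped. The ratio of Ifit1 to Ifit2 was 0.578 and 0.606 in KO clone 2, 0.553 and 0.822 in KO clone 1, 0.644 in WT mouse 1 and 1.91 in WT mouse 2. WT mouse 2 thus stood apart from the other 5 libraries in this ratio, which is of CPM and not per length.

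To compare levels between genes, CPM was divided by the length of each gene's exons. On this scale of CPM per kilobase, Ifit3 was highest in every library, at 215 to 293 in KO and 117 and 130 in WT. Ifit2 (97.3 to 140 in KO, 64.1 and 29.8 in WT) and Ifit1 (96.2 to 118 in KO, 61.0 and 84.0 in WT) came next. Their ranges overlapped, and Ifit1 stood above Ifit2 in KO clone 1 mouse 2 and in WT mouse 2. Ifit3b (44.3 to 58.4 in KO, 21.5 and 27.0 in WT) and Ifit1bl1 (14.9 to 19.4 in KO, 4.56 and 3.26 in WT) followed, and Ifit1bl2 was last in every library.

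Reads from near-identical genes can be divided between them in uneven ways, so the shared sequence was measured. Ifit3 shared 61.8% of its 31-base words with other IFIT transcripts, all of them with Ifit3b, and the coding sequences of this pair were 99.1% identical. Ifit1bl1 shared 19.3% (18.7% with Ifit1bl2), Ifit1 9.62% and Ifit2 none. Coding identity was 88.2% between Ifit1bl1 and Ifit1bl2, 77.3% between Ifit1 and Ifit1bl1, and 64.6% between Ifit2 and Ifit3. With Ifit3 and Ifit3b summed before the fit, the pair had 567 and 467 CPM in KO clone 2, 627 and 493 CPM in KO clone 1, and 247 and 281 CPM in WT, with a log2 fold change of 1.03 ± 0.20. With Ifit1, Ifit1bl1 and Ifit1bl2 summed, the log2 fold change was 0.72 ± 0.19. Ifit1 made up most of this sum (mean 292 of 334 CPM in KO and 193 of 203 CPM in WT). The sum therefore says little about Ifit1bl1. Neither sum passed, and the level of Ifit3 apart from Ifit3b remains uncertain.

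Set against WT, the clones gave similar values. For KO clone 2 against WT the log2 fold change was 2.09 ± 0.28 for Ifit1bl1, 1.34 ± 0.40 for Ifit2, 0.96 ± 0.24 for Ifit3 and 0.52 ± 0.24 for Ifit1. For KO clone 1 against WT it was 2.13 ± 0.28 for Ifit1bl1, 1.33 ± 0.40 for Ifit2, 1.09 ± 0.24 for Ifit3 and 0.68 ± 0.24 for Ifit1. None of the 4 members passed in either comparison, in each of which 0.00643% of all genes passed (1 gene). Both comparisons use the same WT libraries. Without any WT library entering the difference, KO clone 2 against KO clone 1 gave -0.03 ± 0.26 for Ifit1bl1, 0.01 ± 0.40 for Ifit2, -0.13 ± 0.24 for Ifit3 and -0.16 ± 0.24 for Ifit1. No member passed there, and 0% of all genes did with edgeR, while 502 had an unadjusted p under 0.05 and DESeq2 called 117. The standard errors and calls between clones still rest on WT, since the fit with 3 groups shares 1 estimate of the spread. With either WT library left out, the standard error between clones was 0.20 for Ifit2 and 0.12 for Ifit1. Values that miss the threshold do not show that the clones are alike.

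**Figure D3:**
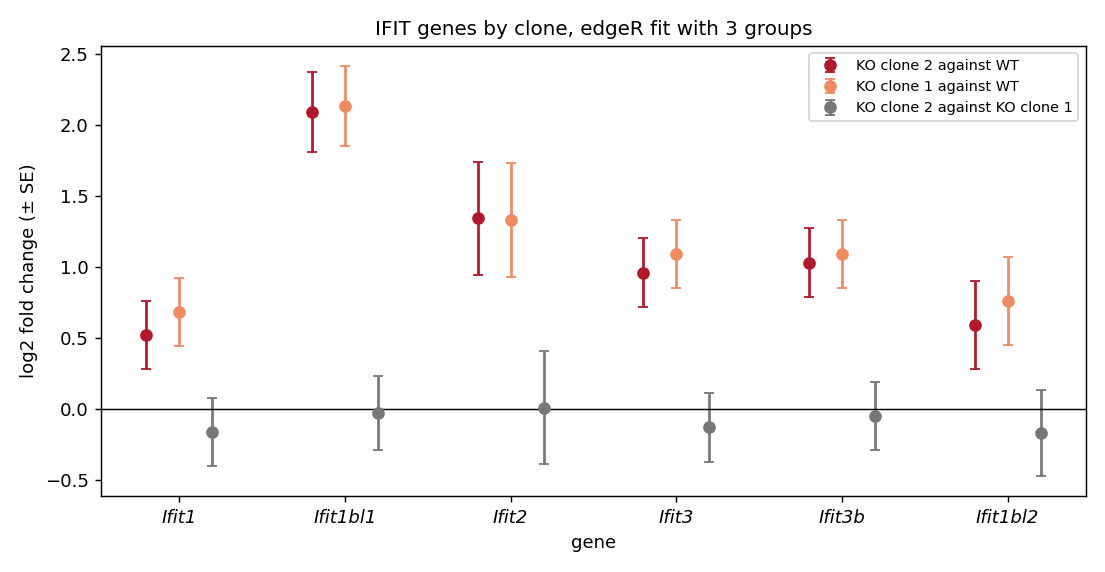
Log2 fold change with its standard error for each IFIT gene in the fit with 3 groups, for KO clone 2 against WT, KO clone 1 against WT, and KO clone 2 against KO clone 1. The values of both clones against WT lie above 0 and within a standard error of each other for every gene, and those between clones lie between -0.17 and 0.01.

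The other genes of the interferon response were read from lists chosen with earlier results of these data known. Among the ligands, 3 of the 13 in the table had enough counts to be tested, none of them an interferon-alpha gene, and none passed. Ifnb1, the interferon-beta gene, was at 0.890 and 0.409 CPM in KO clone 2, 4.80 and 4.11 CPM in KO clone 1, and 3.71 and 5.78 CPM in WT. These groups overlapped for KO clone 1 and WT, and KO clone 2 was lowest. Ifng, the interferon-gamma gene, was at 7.96 and 3.75 CPM in KO clone 2, 7.17 and 5.36 CPM in KO clone 1, and 0.637 and 1.93 CPM in WT, with a log2 fold change of 2.33 ± 0.54 that did not pass.

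All 6 receptor genes had positive values and none passed. Ifnar1 and Ifnar2, which form the type I receptor, had log2 fold changes of 0.17 ± 0.17 and 0.53 ± 0.19. Of 9 signal factors, 7 were positive and none passed. Irf7, a factor that amplifies the response and is itself induced by interferon, had 511 and 487 CPM in KO clone 2, 654 and 511 CPM in KO clone 1, and 174 and 209 CPM in WT. Its log2 fold change of 1.5 ± 0.21 was the largest of these factors and did not pass. Irf9 (0.53 ± 0.17) and Stat2 (0.09 ± 0.28), which act in the complex on the response element, did not pass either. Of 15 nucleic acid sensors, 13 were positive and none passed, among them the RNA sensors Ifih1 (1.22 ± 0.21) and Ddx58 (0.77 ± 0.24).

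The antiviral effectors, which interferon switches on beside the IFIT genes, had values close to those of the family. Of 35 tested, 32 were positive with a median log2 fold change of 1.01, and in 28 all KO libraries lay above both WT libraries, against 12.9% of all genes. None passed. Ifi44 (2.12 ± 0.29), Rtp4 (1.5 ± 0.23), Slfn5 (1.34 ± 0.20) and Xaf1 (1.17 ± 0.18) were nearest to passing. Isg15, a ubiquitin-like modifier and a classic interferon-stimulated gene, did not share the arrangement of the IFIT genes. It was at 47.4 and 44.1 CPM in KO clone 2, 66.6 and 53.2 CPM in KO clone 1, and 25.1 and 99.1 CPM in WT. WT mouse 2 was the highest of all libraries for it and WT mouse 1 the lowest, with a log2 fold change of -0.23 ± 0.47. Bst2 (-0.37 ± 0.43) and Lgals3bp (-0.21 ± 0.42) were the other negative values. Without WT mouse 2, all 35 effectors were positive, with a median of 0.96. Leaving out WT mouse 1 instead gave 30 positive and 5 negative, with a median of 0.93.

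Of 19 genes listed for the interferon-gamma response, not all of them particular to it, 16 were positive with a median of 0.93, and 2 passed. These were Tgtp1 (2.64 ± 0.24), a GTPase, and Upp1 (1.78 ± 0.20), uridine phosphorylase. The chemokine gene Cxcl10 (1.08 ± 0.17) did not pass, and Nos2 (-0.57 ± 0.55), Cd74 (-0.48 ± 0.64) and Cd274 (-0.20 ± 0.46) were negative. All 19 were positive with WT mouse 2 left out (median 1.24), while with WT mouse 1 left out 14 were (median 0.73). Of 6 brakes on the response, 4 were positive with a median of 0.11 and none passed, with Usp18, which acts at the type I receptor, at 0.80 ± 0.29. Their median came to 0.85 if WT mouse 2 was dropped and to -0.23 if WT mouse 1 was. Of 4 genes for cap methylation, which makes the marks that keep Ifit1 from binding a cell's own RNA, 3 were positive and none passed, with Cmtr1 at 0.12 ± 0.16.

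**Figure D4:**
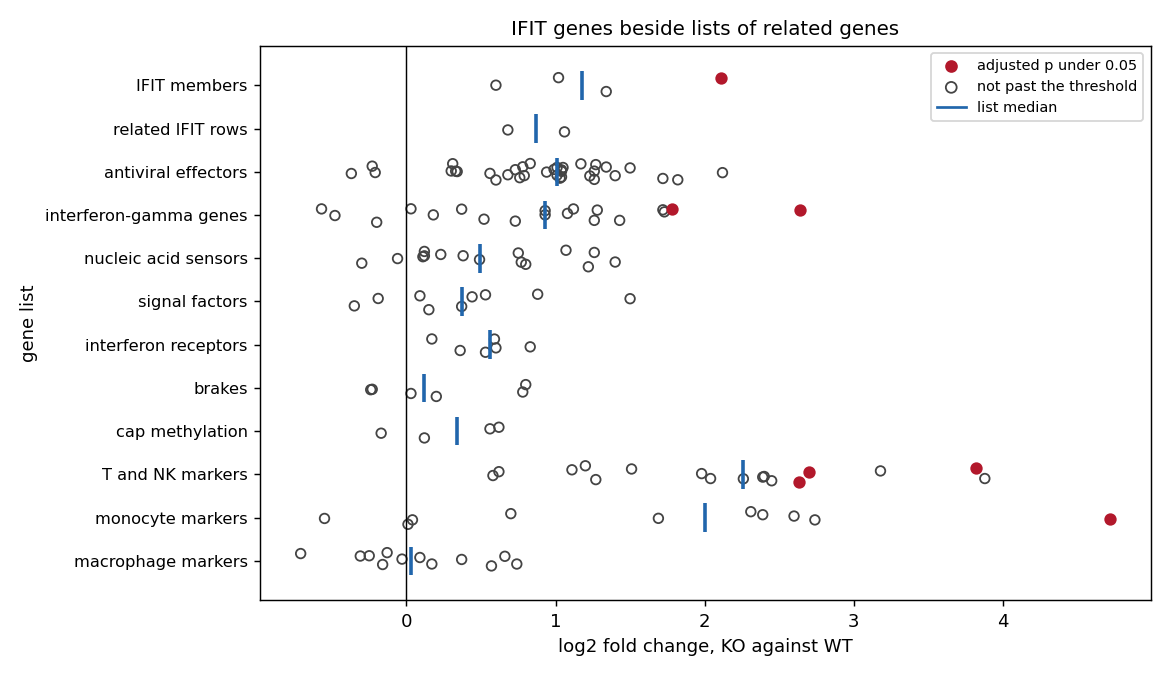
Log2 fold change of KO against WT for the genes of each list (rows), with filled points for genes that passed, open points for those that did not, and a blue line at the median of the list. The IFIT members (median 1.18) lie near the antiviral effectors (1.01) and above the signal factors (0.37), while T and NK markers (2.26) lie further to the right.

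Markers of other cells also differed between the groups. All 17 T and NK markers were positive with a median log2 fold change of 2.26, and Cd3g (3.82 ± 0.39), Cd2 (2.70 ± 0.31) and Klrk1 (2.63 ± 0.23) passed. Dropping WT mouse 2 gave a median of 3.15, and dropping WT mouse 1 a median of 1.75. Their summed level was 142 to 261 CPM in KO and 30.6 and 55.2 CPM in WT, and no marker in the list was at 0 in every library. Of 10 monocyte markers 9 were positive with a median of 2.0, and Ly6c2 (4.72 ± 0.27) passed. Their summed level was 3085 to 3792 CPM in KO and 3076 and 4424 CPM in WT, so that the groups overlapped. Fn1, the fibronectin gene and the only negative one of the list, made up most of this sum, with 1875 to 2456 CPM in KO and 2315 and 3995 CPM in WT. The other 9 markers came to 1015 to 1336 CPM in KO and 761 and 429 CPM in WT, with no overlap. Of 8 neutrophil markers tested 7 were positive with a median of 1.90 (5.69 if WT mouse 1 was dropped), none passed, and their sum was 56.5 to 75.2 CPM in KO and 40.3 and 38.9 CPM in WT. Most of it was Csf3r, a cytokine receptor gene, without which the sums were 10.5 to 14.8 CPM in KO and 14.0 and 13.1 CPM in WT. Plasmacytoid dendritic cell markers, 3 of 6 positive, came together to 84.2 to 111 CPM in KO and 88.6 and 86.2 CPM in WT, nearly all of it from Tcf4, a transcription factor gene that many cells express. The others came to 7.65 to 13 CPM in KO and 12.5 and 6.54 CPM in WT, and Siglech, a defining marker, was below 1 CPM in every library. The sum of the fibroblast markers was between 2475 and 3951 CPM in KO, against 4159 CPM in WT mouse 1 and 12013 CPM in WT mouse 2, with 6 of 9 positive and none passing. The collagen gene Col3a1 held most of it, and the other 8 came to 639 to 773 CPM in KO and 525 and 693 CPM in WT. No dendritic cell, B cell, endothelial or tumour epithelial marker passed, but some of their sums differed. Endothelial markers came to 48.0 to 61.7 CPM in KO and 23.4 and 31.4 CPM in WT. B cell markers came to 8.57 to 13.8 CPM in KO and 6.37 and 4.20 CPM in WT. Of 10 dendritic cell markers 7 were positive with a median of 0.93, and their sums overlapped (98.0 to 131 CPM in KO, 72.1 and 132 CPM in WT). Tumour epithelial markers came to 11.4 to 13.2 CPM in KO and 15.7 and 44.1 CPM in WT. Macrophage markers such as Csf1r and Adgre1 were high in every library, with 6 of 12 positive and none passing. They came to 11737 to 13833 CPM in sum in KO and 11238 and 14156 CPM in WT. Lyz2, the most abundant of them, had 2430 to 3336 CPM in KO and 1999 and 1608 CPM in WT, with no overlap. The other 11 came to 9307 to 10785 CPM in KO and 9240 and 12548 CPM in WT. The part of other cells in the IFIT levels was not tested.

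The genes that flank the cluster did not pass. The nearest one tested, Lipa, a lysosomal lipase gene 23220 bases away, had 235 to 334 CPM in KO and 272 and 153 CPM in WT, with a log2 fold change of 0.43 ± 0.27. Ch25h, cholesterol 25-hydroxylase and itself an interferon-stimulated gene, was at 1.09 ± 0.47, and Fas, a death receptor, at 1.05 ± 0.22. On the other side, Pank1 was at -0.22 ± 0.20. Slc16a12 and Mir107 had too few counts to test.

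For each member, the genes most like it in pattern were taken by Pearson's r of log2 CPM (with 0.5 added) over the 6 libraries, among 10214 genes with a mean of at least 5 CPM. With 6 libraries, of which the WT pair is lowest in each member, such values describe the libraries and were not tested. Ifit3 was closest to Cmpk2 (r = 0.993), an interferon-stimulated kinase gene, then to Ifit3b (0.992), with which it shares sequence, and Klhl22 (0.992). Ifit1bl1 was closest to Zc3hav1 (0.997), which encodes an antiviral zinc finger protein, Cd28 (0.997), a T cell costimulatory receptor, and Ms4a4c (0.995). Ifit2 was closest to Col4a3bp (0.997), Cd86 (0.996), a costimulatory ligand of myeloid cells, and Pydc4 (0.995). Ifit1 was closest to Zc3h10 (0.978), Plac8 (0.975) and Itgb1 (0.970). Apart from the relative Ifit3b, listed for Ifit3, none of the 4 members was among the 3 nearest genes of another.

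**Figure D5:**
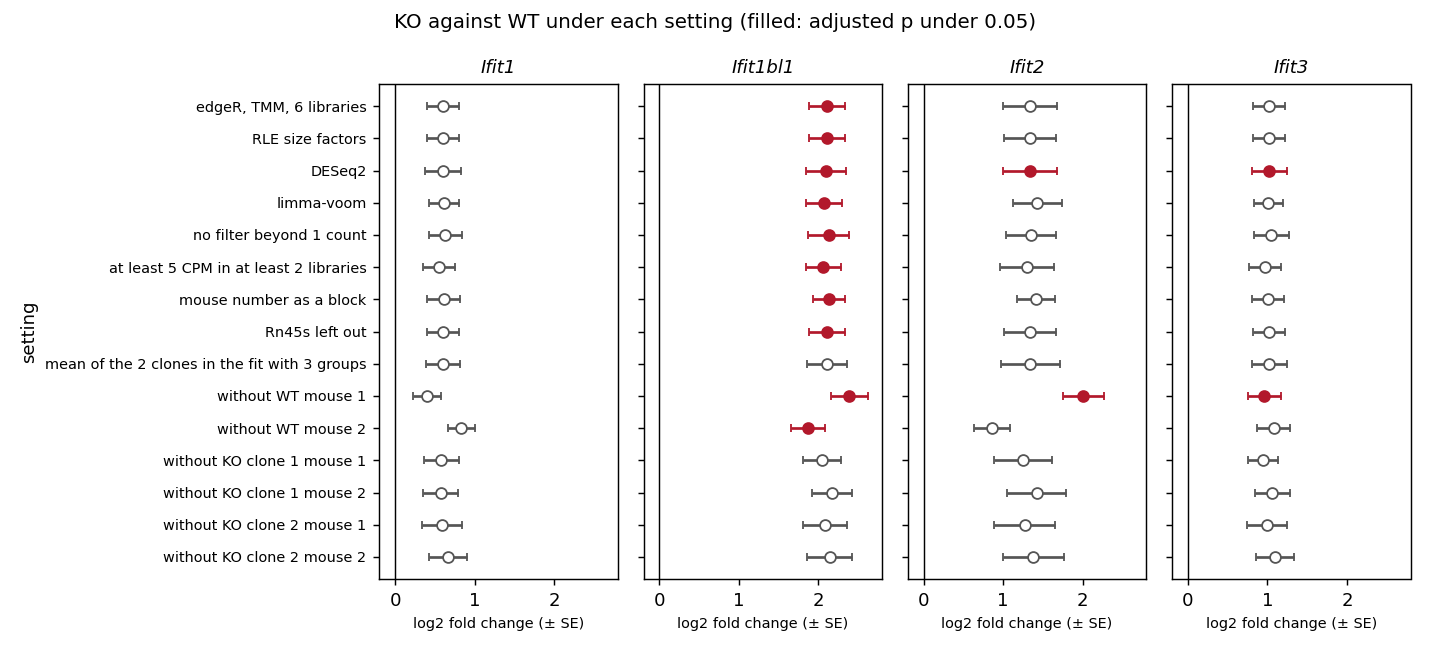
Log2 fold change of KO against WT with its standard error for the 4 members under each analysis setting (rows), filled where the adjusted p was under 0.05. All values are above 0, Ifit1 passes under none of these settings, and Ifit2 moves most, between 0.86 and 2.01, when a WT library is left out.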

How the data were processed

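Total RNA of macrophages sorted from MC38 tumours was sequenced from libraries depleted of ribosomal RNA, per the labels' protocols. The authors deposited a single table of estimated counts, 1 row per symbol, in whole numbers not scaled to depth. The submitters' processing notes name Salmon 0.7.2 and mm10. Not given in the sources used here are the transcript set, the use of strand and how reads of near-identical genes were divided. The members and all gene lists were chosen with earlier results of these data known.

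The whole table was fitted in R 4.3.3 by edgeR 4.0.16 (quasi-likelihood F test, TMM factors) after filterByExpr (minimum count 10, minimum total 15), with Benjamini-Hochberg adjustment at 0.05. KO against WT came from a fit with 2 genotype levels, and the clone comparisons from a fit with 3 groups. Mice carrying the same clone count as replicates here, although they are not independent knockouts, and what else the clones share cannot be told apart from loss of Xkr8. The standard error is the absolute log2 fold change over the square root of F. The fits were tested on simulated counts. Groups came from the labels, and both libraries of each group differed beyond counting noise (chi-square over its degrees of freedom 85.6 to 924). Counting error is small beside the spread between mice for the members, the lowest count being 107.

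Named genes are the 4 members, their relatives, the 3 annotated genes on each side of the cluster, the 3 genes most like each member, and from the lists those that passed and up to 4 others per direction with the smallest p, with single genes of the signalling lists whatever their result. A gene that this rule allows is not reported here. Members were compared by coding-sequence identity, where protein identity had been planned. Positions and exon lengths are from GENCODE M21 (GRCm38), and 93.2% of the symbols matched the RefSeq gene table. Alternatives were RLE factors, DESeq2 1.42.0, limma-voom (limma 3.58.1), no filter beyond 1 count, a filter at 5 CPM in 2 or more libraries, a block for mouse number, Rn45s left out, the clones' mean from the 3-group fit, each library left out in turn, unscaled library totals for levels, 1 mismatch in the motif and, added after seeing the data, IFIT genes that share sequence summed, and marker sums without their most abundant gene.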

Additional observations from a re-analysis of the deposited data

How the results depend on the processing

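The fold changes of KO against WT were positive under all 14 alternatives run for Ifit1, Ifit1bl1 and Ifit3 and all 15 for Ifit2 (the only member kept as its own row when relatives were summed), a direction that the choice of the members fixes. On unscaled totals, too, the KO libraries lay above both WT libraries for all 4. Genes called there numbered 21, against 499 with DESeq2, 111 with no filter, 1 for the mean of the clones and 1 to 6020 with a library left out, the high end without WT mouse 1. Ifit1bl1 (2.11) did not pass for the mean of the clones (2.11), and ranged from 1.87 to 2.39 with a library left out. Ifit2 (1.34) and Ifit3 (1.02) passed with DESeq2, and ranged from 0.86 to 2.01 and from 0.94 to 1.09 with a library left out. Ifit1 passed under none (0.40 to 0.83). With the replicate block, 15 genes were called, among them Ifit1bl1 (2.13), while Ifit2 (1.41), Ifit3 (1.01) and Ifit1 (0.61) did not pass. Whether the mouse numbers pair the samples is not settled. Correlations of same-numbered deviations were -0.281, 0.0499 and 0.22, and with 2 mice a group such values cannot decide it.

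For KO clone 1 against WT, 1 gene was called, against 271 with DESeq2, 123 with no filter, 0 with the filter at 5 CPM, 0 with the block and 0 to 5535 with a library left out. Ifit1bl1 passed with DESeq2 (2.11) and with no filter (2.14), and ranged from 1.88 to 2.41 over the libraries left out. Ifit3 passed with DESeq2 (1.07). Over the libraries left out, Ifit3 ranged from 0.92 to 1.25 and Ifit2 from 0.86 to 2.0. Without WT mouse 1, Ifit3 was at 1.02 and Ifit2 at 2.0. For KO clone 2 against WT, 1 gene was called, against 465 with DESeq2, 229 with no filter, 9 with RLE, 8 without Rn45s, 0 with the filter at 5 CPM, 0 with the block and 0 to 6445 with a library left out. Ifit1bl1 passed with DESeq2 (2.10) and with no filter (2.11), and Ifit3 passed with DESeq2 (0.96). With a library left out, Ifit1bl1 ranged from 1.85 to 2.38, Ifit3 from 0.80 to 1.11 and Ifit2 from 0.87 to 2.01. Without WT mouse 1, Ifit3 was at 0.90 and Ifit2 at 2.01. Between clones, 0 genes were called, against 117 with DESeq2, 53 with no filter and 0 to 87 with a library left out. There Ifit1bl1 turned sign (0.17 and 0.03, range -0.21 to 0.17), as did Ifit3 (0.05 and 0.01, range -0.28 to 0.05) and Ifit2 (-0.01 with the filter at 5 CPM, -0.13 and -0.23 with a KO library left out, range -0.23 to 0.29). The cause of these changes was not tested. With 1 mismatch allowed, the core was in all 6 windows of the members, those of Ifit2 included, and in 65.5% of all windows.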
